A study of Prunus persica with 2 samples.

Results

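In wounded peach (Prunus persica) fruit, 128 genes kept a nearly constant total while their annotated transcripts exchanged places between a wound given water and a wound given the yeast Pichia membranaefaciens. They were chosen from the transcript values of both libraries, by 4 criteria. A gene needed at least 2 annotated transcripts, and an annotated FPKM sum (FPKM is a fragment count scaled to transcript length and library depth) of 5 or more in both libraries. Its difference of log2(sum + 1), yeast minus control, had to be under 0.5 in size. The share of at least 1 annotated transcript in that sum had to move by 50 percentage points or more. Of 26873 annotated genes, 8150 have 2 or more annotated transcripts, 4201 of these reached the sum in both libraries, and 3889 of these had a steady total. The 128 exchange genes are 3.29% of the 3889 steady genes. Since the values themselves chose these genes, their shares are a description and carry no test.

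The control library came from wounds that received 30 μL of sterile water, and the yeast library from wounds that received 30 μL of yeast suspension. Fruit stood at 28 °C and 95% relative humidity, and wound tissue was taken 3 days after treatment. There is 1 library per group, so no difference below can be set against the spread between fruit of the same treatment, and no p-value is given. The sources used here do not name the peach variety or the number of fruit behind each library. Depth was an estimated 26792572 fragments in the control and 25121265 in the yeast library, from the ratio of coverage to FPKM with 300 bases per fragment, the most frequent low value of coverage times length in the tables. The identifiers match no gene name in the reference table (0 matches), so neither products nor markers of the labelled tissue could be assigned.

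A plant gene can give rise to several transcripts. Transcription may start at another promoter position, the precursor RNA may be spliced at other sites, or it may be cut and polyadenylated at another 3′ end. In plants, retention of an intron is a frequent kind of alternative splicing, and exon skipping is less frequent than in animals. Such choices can alter the protein, or only the untranslated ends, and transcripts with an early stop codon can be degraded by nonsense-mediated decay. The deposited tables give the ends, exon number and spliced length of each transcript, but not its inner exon borders. Below, the gaining transcript is the one whose share rose most with the yeast, and the losing transcript the one whose share fell most.

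The exchange was usually a change of the leading transcript. In 121 of the 128 genes the most abundant annotated transcript differed between libraries, compared with 375 of all 3889 steady genes (9.64%). This difference follows in large part from the choice of the genes. Both transcripts of the pair moved by 50 points or more in 60 genes. In 39 genes the rise alone did so, and in 29 the fall alone, with the remainder spread over other transcripts of the gene. A rise of this size was seen in 2.55% of the steady genes and a fall in 2.29%. Over all steady genes the largest move of a transcript was 4.22 points at the median and 40.7 points at the 95th percentile, so the exchange genes are the end of a continuous range. Totals of the exchange genes were about as steady as those of all steady genes, with a median size of the difference of 0.16 and 0.14 on the log2(sum + 1) scale. In bulk tissue, a change in the mix of cells and a change of transcripts within cells cannot be told apart, nor can fewer cells of a type and less RNA per cell. The authors' separate gene table gave differences between -0.67 and 0.49 on the log2(FPKM + 1) scale for the 128 genes, and 125 of them stayed under 0.5 in size.

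**Figure D1:**
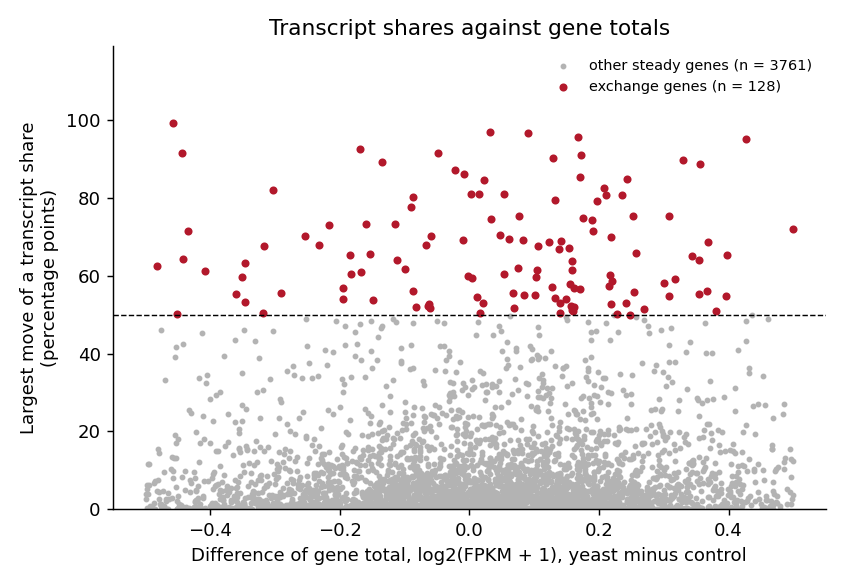
Each point is 1 of 3889 steady genes, with the difference of its annotated total on the x axis (log2(FPKM + 1), yeast minus control) and the largest move of an annotated transcript share on the y axis (percentage points). The 128 exchange genes lie at or above the dashed line at 50 points and are spread over the whole range of total differences.

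The 128 genes carry 638 annotated transcripts, of which 571 were above 0 in at least 1 library. Their annotated sums ran up to 2816 FPKM for the control and 3171 FPKM for the yeast library, with medians of 10.9 and 11.4 FPKM. They rested on a median of 797 estimated fragments in the control library, and on no fewer than 251 in the control and 193 in the yeast library. In all 128 genes the gaining and the losing transcript each held at least 30 estimated fragments in the library where it was higher. Exchange genes were a smaller part of the abundant genes. They were 57 of 929 steady genes (6.14%) with a mean sum of 5 to 10 FPKM, 40 of 1183 (3.38%) at 10 to 20, 22 of 1047 (2.10%) at 20 to 50 and 9 of 730 (1.23%) at 50 or more. They were a larger part where more transcripts are annotated, from 12 of 1814 genes (0.662%) with 2 transcripts to 40 of 449 (8.91%) with 6 or more.

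By far the most abundant exchange gene was Prupe.5G161300, on the minus strand of Pp05 from 14188188 to 14190502, with the highest sums just given. Its transcript Prupe.5G161300.1, of 4 exons, had 1597 FPKM in the control and 4.64 FPKM with the yeast, and its share went from 56.7% to 0.146%. The 4 other transcripts of the gene have the same 5′ end and a 3′ end 35 bases further upstream, and each was higher in the yeast library. The largest of them, Prupe.5G161300.5 with 3 exons, went from 338 to 1069 FPKM. The losing form thus differs from the 4 others in its 3′ end, by 35 bases. It also differs inside from Prupe.5G161300.5, which has 1 exon fewer but is 140 bases longer. The 5′ end is common to all 5 transcripts, so its share could not move.

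The ends of the gaining and losing transcripts divided the exchange genes into 4 classes. Neither end was shared in 55 genes (43.0%, exact 95% interval 34.3% to 52.0%), the 3′ end alone in 31 (24.2%), the 5′ end alone in 22 (17.2%) and both ends in 20 (15.6%, 9.81% to 23.1%). Intervals of shares over genes treat genes as independent, which they are not. Among the 3548 other steady genes in which 1 transcript rose and another fell, the same classes held 30.9%, 21.1%, 12.6% and 35.3%. Pairs with both ends in common were less frequent among the exchange genes, and the 400 genes with moves of 20 to 50 points lay between. In genes with exactly 2 annotated transcripts, where the pair is fixed by the annotation, both ends were shared in 2 of 12 exchange genes and in 615 of 1607 others (38.3%). The contrast was smaller in genes with 3 transcripts, 6 of 29 (20.7%) against 32.3%, and with 4 transcripts, 7 of 27 (25.9%) against 34.5%. It did not fade further with transcript number. With 5 transcripts it was 0 of 20 against 35.3%, and with 6 or more 5 of 40 (12.5%) against 30.6%. The annotation of these genes differs too, whichever transcripts exchanged. The share of annotated pairs with both ends in common, averaged over genes, was 20.3% in the exchange genes and 33.7% in the other steady genes, and over every annotated pair it was 25.2% and 28.1%.

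**Figure D2:**
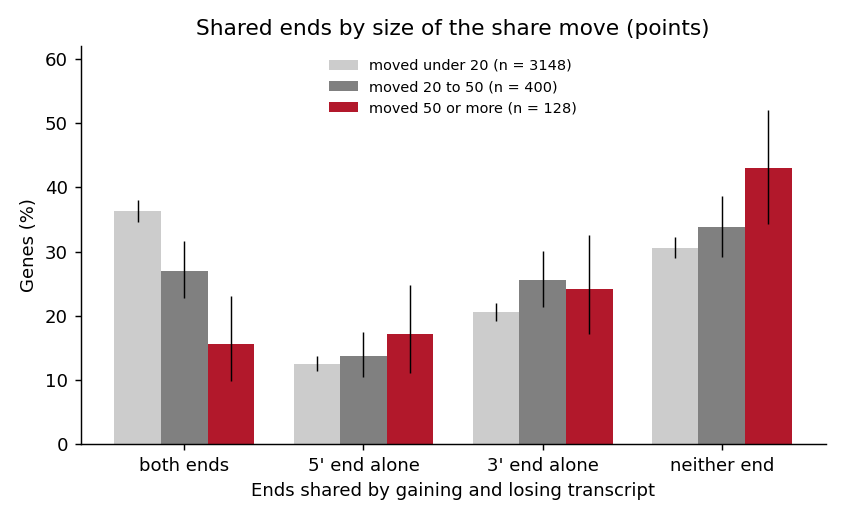
Bars give the percentage of genes in which the gaining and losing transcript share both ends, the 5′ end alone, the 3′ end alone or neither, for genes whose largest share move was under 20 points (n = 3148), 20 to 50 points (n = 400) or 50 or more (n = 128); lines are exact 95% binomial intervals over genes. Sharing of both ends falls from the lightest to the red bars, and sharing of neither end rises.

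The contrast depended on abundance. Where both sums were 10 FPKM or more, neither end was shared in 20 of 69 exchange genes (29.0%) and in 860 of 2630 others (32.7%). Where a sum was under 10 FPKM, it was 35 of 59 (59.3%) and 238 of 918 (25.9%). Both ends were shared in 10.2% of exchange genes against 39.7% of others at these lower sums, and in 20.3% against 33.8% where both sums were 10 FPKM or more. Where both sums were 20 FPKM or more, both ends were shared in 9 of 29 exchange genes (31.0%) and 487 of 1571 others (31.0%). Neither end was shared in 5 of 29 (17.2%) and 559 of 1571 (35.6%), the reverse of the direction over all sums. The 3′ end alone was shared in 34.5% and 21.9%. The part of depth and of the annotation in the contrast was not tested.

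A transcript that gains can share an end with others that lose, so shares were also summed over all annotated transcripts with the same end. The share of a 5′ end moved by 50 points or more in 78 of the 128 genes (60.9%), and the share of a 3′ end in 69 (53.9%). Both happened in 46 genes, the 5′ end alone in 32 and the 3′ end alone in 23. In the 27 remaining genes (21.1%) no end moved this far although a transcript did. In 11 of these both end shares moved by under 20 points. The end shares of Prupe.2G115100, Prupe.3G159200, Prupe.6G157900 and Prupe.8G041900 did not move at all, while those of Prupe.8G091300 moved by 19.7 points beside 65.7 points for its transcript. In Prupe.2G115100 and Prupe.6G157900 both annotated transcripts have the same ends, and in Prupe.3G159200 all 3 do. The end shares of these genes could therefore not move. The value for 3′ ends depended on abundance, with 28 of 69 genes (40.6%) where both sums were 10 FPKM or more and 41 of 59 (69.5%) where a sum was lower. For 5′ ends it was 59.4% and 62.7%.

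The largest move was seen between different starts. Prupe.8G160500, on the minus strand of Pp08 from 16906114 to 16910351, has 2 annotated transcripts with the same 3′ end. The longer form of 10 exons, Prupe.8G160500.1, stood at 56.2 FPKM in control wounds and at a listing of 0 with the yeast. The form of 9 exons, which starts 803 bases further downstream, had 0.387 FPKM (about 12 fragments) in the control and 40.9 FPKM (about 1201 fragments) with the yeast. The gene thus moved from 99.3% of 1 form to 100% of the other, while its annotated sum went from 56.6 to 40.9 FPKM. In the authors' separate gene table it had 51.8 and 34.9 FPKM. There it is among the few exchange genes whose difference did not stay under 0.5 in size. Its locus also holds a further annotated gene and a newly assembled transcript with 28.6 and 22.0 FPKM. When this transcript was counted in the sum, the rise of the 9-exon form was 64.6 points in place of 99.3.

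Prupe.1G267500, on the plus strand of Pp01 from 27492946 to 27498224, is the exchange gene with the next largest move and has no common end. Its losing transcript of 5 exons and 2785 bases had 76.6 FPKM in the control and 2.38 FPKM with the yeast. Its gaining transcript of 6 exons and 2447 bases was listed at 0 and at 74.9 FPKM. The gaining form starts 194 bases further downstream and ends 64 bases further upstream. It has 1 exon more but is 338 bases shorter.

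In 15 exchange genes a transcript with at least 80% of the control sum gave way to another with at least 80% of the yeast sum. Besides Prupe.8G160500 and Prupe.1G267500 this group holds Prupe.8G066400, with 2 transcripts of 2 exons each. Its form Prupe.8G066400.1 had 13.3 FPKM in the control and 0.661 FPKM with the yeast, and Prupe.8G066400.2 had 0.935 and 17.5 FPKM. Further members of the group, chosen here after their values were seen, are Prupe.2G115100, Prupe.7G148100, Prupe.7G221200 and Prupe.6G290600. In Prupe.7G221200, at 8.71 and 9.34 FPKM, the pair shares its 5′ end and the gaining share went from 3.27% to 99.96%. In Prupe.7G148100 the gaining transcript starts 306 bases further upstream than the losing one at the same 3′ end, and its share went from 9.97% to 99.1%. In Prupe.6G290600, at only 7.12 and 6.22 FPKM, the gaining form was listed at 0 in the control and held 92.6% with the yeast, beside a new transcript of 6.36 and 11.2 FPKM in the locus. The gaining transcript was listed at 0 in the control in 20 of the 128 genes (15.6%) and the losing one at 0 with the yeast in 28 (21.9%). In 1 gene both were so listed. Among the 3548 other steady genes with a rise and a fall, these were 8.12%, 8.34% and 10 genes.

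Exchanges between starts at a common 3′ end made up the class of 31 genes, with starts 75 bases apart at the median. The exon number was equal in 17 of the 31 pairs and differed in the others. The largest distance among the named genes was at Prupe.7G185200, on the minus strand of Pp07 from 17953249 to 17959156. Its leading transcript, Prupe.7G185200.1, went from 66.8 to 19.5 FPKM, and the gaining Prupe.7G185200.7, which starts 2572 bases further downstream, from 3.34 to 20.7 FPKM. No single form replaced it, since its share fell by 52.0 points and the highest rise was 21.0 points. Prupe.7G247300 showed the opposite geometry, 1 transcript of 19 exons going from 30.2 to 1.97 FPKM and 1 of 26 exons, which starts 2141 bases further upstream, from 0.656 to 34.5 FPKM. The 10 transcripts of Prupe.7G247300 had sums of 66.4 (control) and 67.2 FPKM (yeast). Smaller distances were seen at Prupe.3G206900, where the form that starts 196 bases further upstream went from 38.8% to 96.2%. At Prupe.1G587300 the starts lay 10 bases apart, and a form of 7 exons and 2042 bases went from 66.8% to 11.3%. A form of 8 exons and 1897 bases went from 20.7% to 63.6%, so this pair also differs inside.

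Exchanges between 3′ ends at a common 5′ end were found in 22 genes, and the ends were 34 bases apart at the median. The exon number was equal in 11 of the 22 pairs and differed in the others. In Prupe.7G266500, on the minus strand of Pp07, a transcript of 11 exons with 33.7 FPKM in the control was listed at 0 with the yeast. A further transcript of 11 exons, whose 3′ end lies 21 bases upstream, was listed at 0 in the control and had 37.1 FPKM with the yeast. No other of the 128 genes had both listings at 0. In Prupe.1G303800, forms with 3′ ends 33 bases apart had 65.1 and 22.4 FPKM (losing) and 10.3 and 59.8 FPKM (gaining). In Prupe.6G336900 the 3′ ends lay 9 bases apart, and the losing form of 19 exons went from 17.2 to 0.000666 FPKM. The gaining form, also of 19 exons, went from 1.22 to 9.16 FPKM. In Prupe.2G121200, unlike the 4 other named genes of this class, the gaining transcript ends further downstream. This transcript, which ends 339 bases beyond the losing one, went from 8.01 to 21.3 FPKM and the shorter one from 17.0 to 0.589 FPKM.

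**Figure D3:**
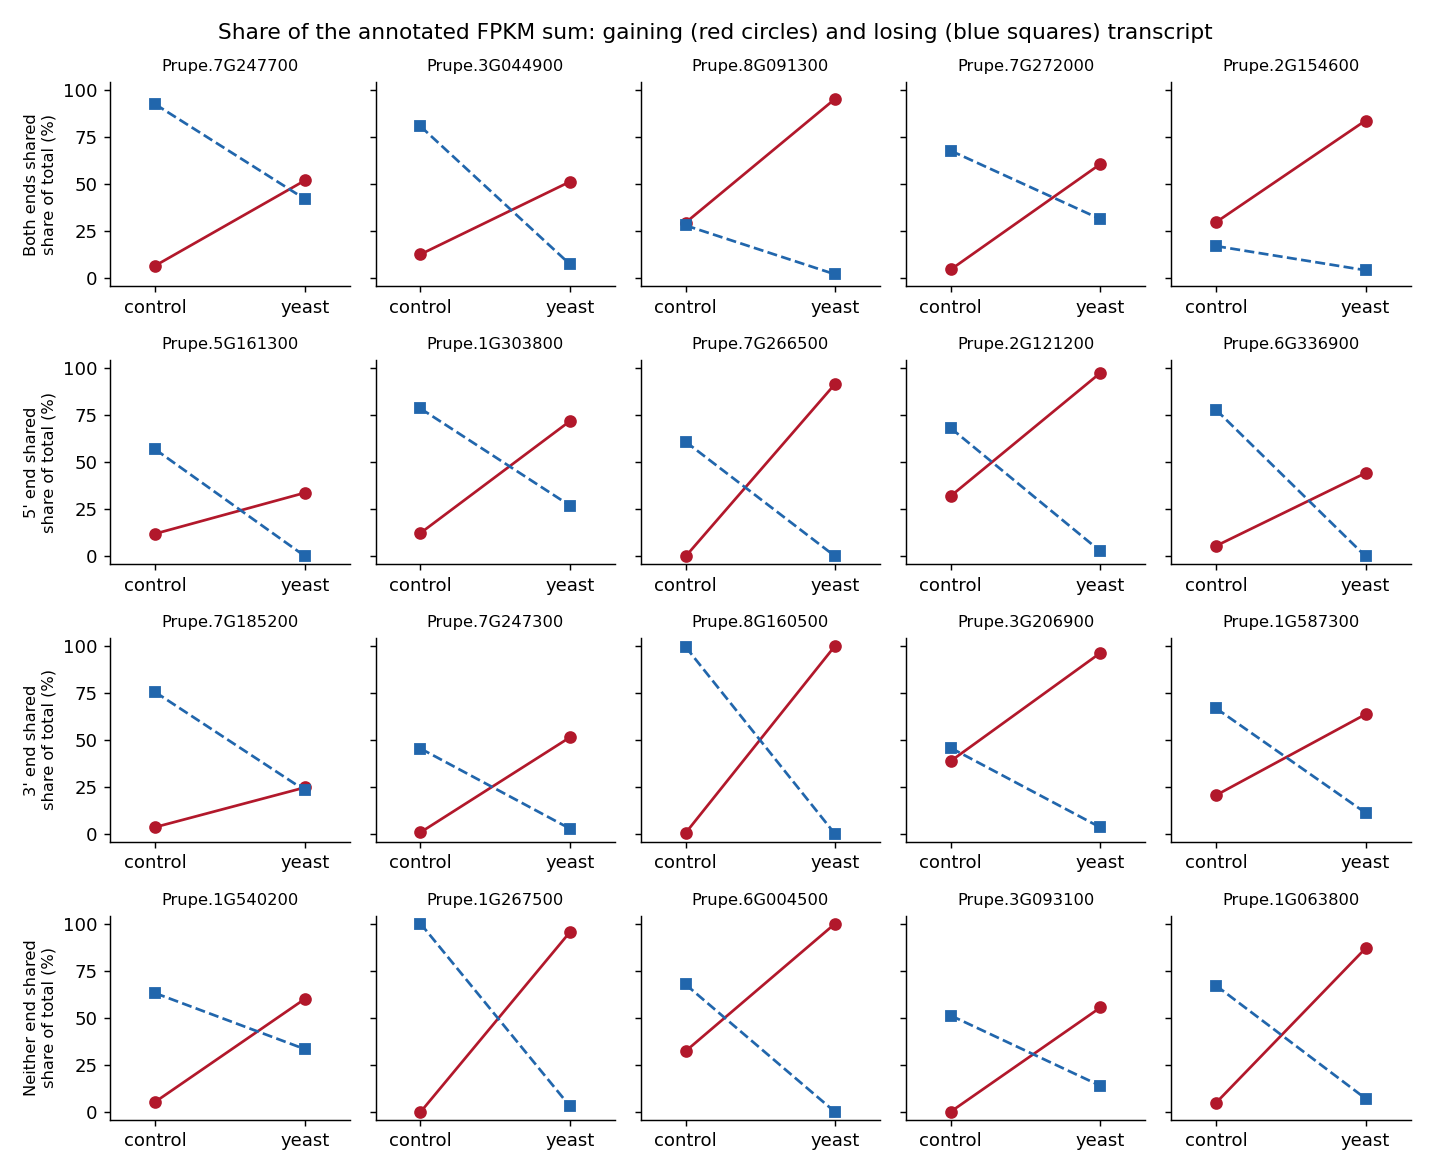
Each panel is 1 gene, with the share of the annotated FPKM sum (percent) of its gaining transcript (red circles) and losing transcript (blue squares) in the control and the yeast library; rows are the classes of shared ends, and each row holds its 5 genes with the highest mean sum, in descending order. In 18 of the 20 panels the lines cross; in Prupe.8G091300 and Prupe.2G154600 the gaining transcript already led in the control.

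With both ends shared, the pair can differ only inside, and exon number and length then describe the difference. In 8 of these 20 genes the form with fewer exons was the longer one, which is the arithmetic of a retained intron. The longer form lost in 5 of the 8 and gained in 3. Among the others with both ends shared, 324 of 1252 pairs (25.9%) had this arithmetic, and the longer form gained in 161 of them (49.7%). In 5 of the 20 genes (25%) the form with fewer exons was the shorter one, as when an exon is skipped. This is near the part among the others, 319 of 1252 (25.5%). In 6 (30%) the exon number was equal and the length was not, compared with 606 of the 1252 others (48.4%). In 1 gene both were equal, as in 2 of the 1252 others.

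Prupe.3G044900, on the minus strand of Pp03 from 3230668 to 3234184, was the most abundant gene with the arithmetic of a retained intron. Its form of 4 exons and 3013 bases went from 48.6 FPKM in the control to 4.17 FPKM with the yeast, and its form of 5 exons and 2640 bases from 7.71 to 28.5 FPKM. A newly assembled transcript of this locus had 11.3 and 43.5 FPKM, and when it was counted in the sum the fall of the 4-exon form was 63.7 points in place of 73.2. Prupe.6G157900, with only 2 transcripts, showed the same direction without such an addition. Its form of 7 exons went from 19.7 to 4.04 FPKM, and its form of 8 exons, 102 bases shorter, from 9.36 to 19.1 FPKM. The form with more exons was also the gaining one in Prupe.1G295800, Prupe.3G002800 and Prupe.5G217000. The opposite direction was seen in Prupe.1G544300, Prupe.3G159200 and Prupe.4G111500. In Prupe.1G544300 the form of 13 exons, 218 bases longer, went from 5.45 to 28.8 FPKM, and that of 14 exons from 19.8 FPKM to a listing of 0. These genes other than Prupe.3G044900 were chosen after their values were seen.

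Very small differences separated some pairs with shared ends. In Prupe.7G247700, the most abundant gene of this class, both transcripts have 15 exons and their lengths, 2440 and 2443 bases, differ by 3 bases. The shorter went from 96.8 FPKM in the control to 51.8 FPKM with the yeast, and the longer from 7.14 to 63.9 FPKM. Prupe.7G272000 also differs by 3 bases, between forms of 8 exons, but there the shorter form gained, from 1.46 to 22.2 FPKM, while the longer went from 20.7 to 11.5 FPKM. The authors' separate gene table gave Prupe.7G272000 only 8.41 and 9.85 FPKM, against annotated sums of 30.5 and 36.6 FPKM. The cause of this gap was not tested. A change of 3 bases leaves a reading frame intact where it falls in coding sequence, and its position is not shown by the tables. In Prupe.2G154600, of 8 transcripts, the 5 other forms with the same ends as its leading one were all lower with the yeast, and the leading form of 1472 bases went from 10.1 to 24.6 FPKM. In Prupe.8G091300 the form with 10 exons went from 10.7 to 41.3 FPKM, and the form with 11 exons, 136 bases longer, from 10.2 to 0.953 FPKM. In Prupe.1G437400 both forms have 13 exons, 4246 bases and the same ends. Its exchange, from 5.82 to 0.0215 FPKM and from 4.32 to 12.6 FPKM, is therefore between transcripts that the tables do not distinguish by end, exon number or length.

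The class with no shared end was the largest and the least abundant, with a median control sum of 9.52 FPKM. Its most abundant gene was Prupe.1G540200, at Pp01 from 44137721 to 44144447 (minus strand), with a sum of 108 FPKM in either library. There a form of 10 exons went from 67.9 to 36.2 FPKM, and another of 10 exons, which starts 188 bases further downstream, from 5.87 to 65.1 FPKM. In Prupe.6G004500 the form of 21 exons went from 34.6 FPKM to a listing of 0 and that of 20 exons from 16.5 to 55.1 FPKM, although the gaining form ends 744 bases further upstream. In Prupe.3G093100 the gaining form of 26 exons went from 0.0559 to 15.2 FPKM, and in Prupe.1G063800 the gaining form of 14 exons from 1.25 to 17.7 FPKM. In Prupe.4G201900 the form of 8 exons went from 15.1 to 0.0735 FPKM and a form of 9 exons, 335 bases shorter, from 0.479 to 13.3 FPKM. Prupe.1G267500 and Prupe.4G201900 thus share a pattern: the gaining form has 1 exon more, is shorter and starts further downstream. In both, the lost length exceeds the distances between the ends, so the inside is shorter too. Whether an exon was added or split cannot be told without the inner exon borders.

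Over all 128 genes the exchange went about as often to a longer as to a shorter form. The gaining transcript was longer in 66 genes (51.6%, interval 42.6% to 60.5%), shorter in 61 and equal in 1. It had more exons in 38 (29.7%), fewer in 37 (28.9%) and the same number in 53 (41.4%). Among the 3548 other steady genes with a rise and a fall these were 27.0%, 28.4% and 44.6%. The median length difference, gaining minus losing, was 8.5 bases (interval -21 to 57). Its sign turned under other limits, with -21 bases at a minimum sum of 10 or 20 FPKM, -18 at a move of 70 points and -5 at 30 points. At the limits used the median size of the difference was 178 bases, compared with 138 in the other steady genes. The exon number differed by 1 in 64 genes and by 2 or more in 11. The gaining form started further upstream in 44 and further downstream in 42. It ended further downstream in 42 and further upstream in 35. The transcript that the annotation numbers 1 gained in 46 genes and lost in 42. The near equality in length hides a difference between ranges of abundance: the gaining form was longer in 27 of 69 genes (39.1%) with both sums of 10 FPKM or more and in 39 of 59 (66.1%) with a sum under 10. The others had 48.4% and 50.3%. This split was made after the values were seen.

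**Figure D4:**
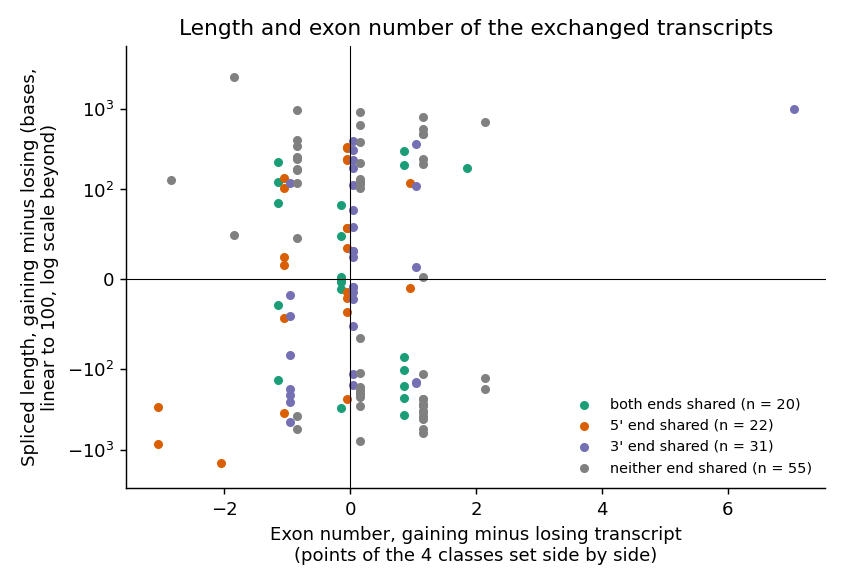
Each point is 1 of the 128 exchange genes, with the exon number of the gaining minus the losing transcript on the x axis and the difference of their spliced lengths in bases on the y axis (linear to 100 bases, log scale beyond); colours give the shared ends. Points lie on both sides of both zero lines, with 66 genes above and 61 below in length.

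The exchange genes were unevenly divided between the strands of the genome. The minus strand held 90 of the 128 (70.3%, interval 61.6% to 78.1%), and 2050 of the 3889 steady genes. Exchange genes were 4.39% of steady genes on the minus strand and 2.07% on the plus strand. The share on the minus strand was larger the larger the move, from 1054 of 2106 genes that moved by under 5 points to 59.9% of 197 at 30 to 50 points, 67.9% of 84 at 50 to 70 and 33 of 44 at 70 or more. The minus strand held more exchange genes than the plus strand on each of the 8 pseudomolecules. These counts are small on some, with 8 exchange genes in all on Pp05. They were not set beside the steady genes of each strand there. Steady genes on the minus strand have more annotated transcripts, 3.78 against 3.09 on average. Within genes of 2 transcripts the exchange genes were 9 of 888 (1.01%) on the minus and 3 of 926 (0.324%) on the plus strand. Within genes of 6 or more they were 30 of 305 (9.84%) and 10 of 144 (6.94%). At mean sums of 50 FPKM or more they were 1.92% and 0.546%. The sources used here do not say whether the libraries kept strand, and the part of transcript number, abundance and library type in this difference was not tested.

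**Figure D5:**
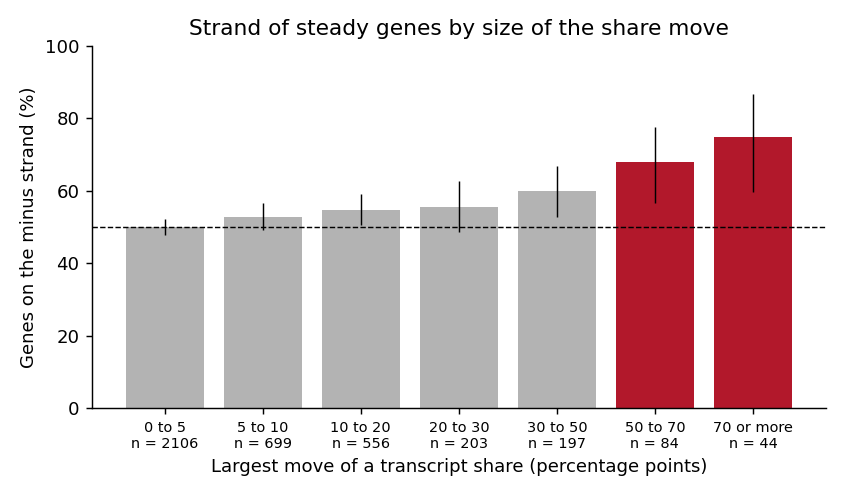
Bars give the percentage of steady genes on the minus strand, by the largest move of an annotated transcript share (percentage points), with the number of genes under each bar and exact 95% binomial intervals over genes; red bars are the exchange genes. The percentage is higher at larger moves and reaches 67.9% at 50 to 70 points and 33 of 44 genes at 70 points or more.

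Newly assembled transcripts were left out of the shares by the rule. A new transcript lay in the locus, on the same strand and over the span of the gene in 8 of the 128 exchange genes (6.25%), a part near that of all steady genes, 289 of 3889 (7.43%). The highest part was in Prupe.3G301300, where the new transcript made up 59.8% of the locus sum in the control and 73.4% with the yeast.

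Exchange genes were scattered along the genome. On the 8 pseudomolecules they ran from 8 of 365 steady genes (2.19%) on Pp05 to 18 of 366 (4.92%) on Pp08. Pp01 had the most, 29 of 919 (3.16%). In 1 case neighbours were both exchange genes, and whether random placement would give such a pair was not tested. Prupe.6G211300 and Prupe.6G211400 lie 877 bases apart on the plus strand of Pp06, from 21961037 to 21978339. In Prupe.6G211300 the form of 20 exons went from 5.53 FPKM to a listing of 0 and the form of 19 exons from 2.84 to 8.70 FPKM. In Prupe.6G211400 the form of 17 exons went from 12.2 to 1.84 FPKM and the form of 18 exons from 0.694 to 11.1 FPKM. In both genes the gaining form started further downstream at the same 3′ end, by 107 and 35 bases.

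At the limit of 50 points the values run on without a gap. The exchange genes nearest to it were Prupe.1G352100, whose gaining form went from 49.8% to 99.8%, and Prupe.6G097700, whose gaining form went from 18.3% to 68.5%. Just outside were Prupe.5G234800, from 31.3% to 81.2%, and Prupe.7G025900, from 35.6% to 85.4%. These shares are the authors' division of short reads among overlapping transcripts, and how far that division differs between libraries of the same treatment is not known from these data.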

How the data were processed

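RNA of wound tissue was sequenced in 2 libraries, 1 per treatment, grouped by their treatment labels. The submitters' processing notes list HISAT2 and HTSeq 0.6.1 without saying what each did. The sources used here do not state the genome build, annotation or assembler. The authors deposited FPKM values per transcript and per gene, and coverage per transcript. Positions are those of the deposited tables, counted from 1.

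From these values, shares of the annotated FPKM sum were computed per gene (pseudocount 1 in the difference of totals). Ends were compared to the base, with strand. Fragments were estimated as coverage times length over 300 bases, and exact (Clopper-Pearson) intervals are at 95%. These intervals cover counting error only. The rule was tried on simulated data, in which fragments were drawn for each transcript from known shares. That simulation leaves out the division of short reads among overlapping transcripts and the spread between libraries. It therefore shows only that the rule was applied as written. Alternatives changed the minimum sum, pseudocount, limits, share denominator and centring, 1 at a time. Tools were Python 3.11.15, pandas 2.3.3 and scipy 1.17.1. Named genes are the 5 most abundant of each end class, the 5 largest moves at a mean sum of 10 FPKM or more, and 2 genes on either side of the limit. The genes and lists were chosen with earlier results of these data known. Lists of splicing factors and of tissue markers by product name could not be applied.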

Additional observations from a re-analysis of the deposited data

How the results depend on the processing

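The number of exchange genes depended on the rule: 69 with a minimum sum of 10 FPKM, 29 with 20 and 440 with none, and 325 at a move of 30 points and 44 at 70. These settings admit fewer or more genes by construction. Under the 9 others it ran from 92 to 143. With a minimum of 10, the gaining form was longer in 39.1%, the 3′ end alone was shared in 33.3% and neither end in 29.0%. With 20, it was longer in 37.9% and had more exons in 20.7%; both ends were shared in 31.0%, the 3′ end alone in 34.5% and neither in 17.2%. The median length difference ran from -21 to 33.5 bases and turned negative at minimum sums of 10 and 20 and at moves of 30 and 70 points. With no minimum, both ends were shared in 24.3%, 56.6% lay on the minus strand and 98.0% had another leading transcript. At 30 points 67.1% had another leading transcript; at 70 points 100% had, the gaining form was longer in 40.9% and neither end was shared in 56.8%. The cause was not tested. The other 134 of 154 values stayed within the interval or 1.5 times of the main one. These include a minimum of 30 fragments in both transcripts, which kept all 128 genes and so repeats the main values. They also include loci with 1 annotated gene, which kept 127. For the named genes, 13 of 48 moves under other share denominators shifted beyond counting error, by up to 34.7 points with new transcripts in the sum. Shares of fragments left 125 of the 128 genes in place, as did sums with new transcripts. The strand, leading transcript and new transcript values were added after seeing the data. No paired analysis was possible because the treatments have 1 library each, and none could be left out.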
